A study of Mus musculus with 96 samples.

Results

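Mouse macrophages given Torin were compared with macrophages given tBHQ, with lipopolysaccharide (LPS) added in both. The wells were chosen by their titles alone: the 8 libraries titled Torin (wells E to H on plates 1 and 2) and the 8 titled tBHQ in the same positions, 16 of the 96 libraries in the series. The pair was set side by side with earlier results on folliculin and lysosome transcripts against the vehicle known, so the values of those genes against the vehicle are given below as a description, with no test.

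Torin is the name of a group of inhibitors that block the kinase mTOR in its ATP pocket, in both of the complexes that mTOR forms. mTOR complex 1 promotes translation and growth and, at the lysosome, phosphorylates the transcription factors TFEB and TFE3 and so keeps them out of the nucleus. Folliculin and its partners FNIP1 and FNIP2 act on the Rag GTPases, which the Ragulator complex holds on the lysosome surface, and this branch directs mTOR to TFEB and TFE3. TFEB and TFE3 in turn raise folliculin, FNIP and lysosome genes. tBHQ, tert-butylhydroquinone, is a phenolic antioxidant whose oxidised form reacts with thiols. It is known for releasing the transcription factor NRF2 from KEAP1, which raises genes of glutathione and heme metabolism. LPS, a bacterial cell wall component, is sensed by macrophages through TLR4 and raises cytokines, chemokines and, through interferon, antiviral genes.

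Bone marrow came from male wild-type C57BL/6 mice aged 8 weeks and was grown into macrophages with MCSF, the growth factor that drives their development, supplied by conditioned medium. Torin or tBHQ was given 30 min before LPS and the cells were lysed 4 h after LPS. DMSO wells, the vehicle with LPS, and NoStim wells, with no LPS, had 8 libraries each and served as reference levels. The labels state no dose for Torin or tBHQ, so the comparison is between these wells and not between matched doses. No well held Torin or tBHQ without LPS, and the labels do not say whether wells came from separate mice or whether Torin_E on plate 1 and Torin_E on plate 2 are one culture. The p-values therefore measure the spread between these wells, which may in part be technical. The libraries were sequenced from transcript 3′ ends.

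The 16 libraries held between 148284 and 309247 counts, and total counts did not pass the test between the compounds (exact permutation p = 0.504, two-sided, adjusted p = 0.504 over 3 measures). Fewer genes had a count in the Torin libraries, 8982 ± 502 (SD, n = 8), than in the tBHQ libraries, 10039 ± 386 (exact permutation p = 9.32e-04, or 0.00280 after adjustment). Summing wells of one name over the plates left 4 against 4, with an exact permutation p of 0.0286, the smallest that design allows, and 0.0857 after adjustment. Rn45s, the ribosomal RNA precursor, took 15.9% to 29.4% of counts under Torin and 12.2% to 30.9% under tBHQ (exact permutation p = 0.254, adjusted p = 0.381). Levels of 1428 genes were taken as deviations from the mean of all 12 groups of the series on the same plate. Each of the 16 libraries correlated with the mean of its own compound on the other plate (r from 0.69 to 0.91). The correlation with the other compound on the other plate was negative (r from -0.25 to -0.18). Both compounds are in the mean that was subtracted, which by itself pushes correlations between groups below 0. Macrophage genes were high in all 16, with 7928 to 9689 CPM (a gene's share of its library, in parts of 1e+06 counts after scaling) summed over 21 identity genes under Torin and 11013 to 15288 CPM under tBHQ. The same sum was 11459 to 13724 CPM in NoStim wells and 9623 to 12025 CPM in DMSO wells. In bulk wells, fewer cells of a kind and less RNA of these genes per cell cannot be told apart. The part of the gap between Torin and tBHQ in the results below was not tested. Of 48 markers of 8 other cell types in the table, 27 had no count in any of the 16 libraries, the highest sum of any such list was 54.96 CPM under Torin and 39.9 CPM under tBHQ, and none was expressed highly enough to be tested.

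Torin and tBHQ wells differed in 1898 of 4963 tested genes, 38.2% of them, at an adjusted p under 0.05 (edgeR quasi-likelihood test, Benjamini-Hochberg adjustment, plate in the model). Such genes are termed called below. Of these, 991 genes (20% of those tested) were higher under Torin and 907 (18.3%) were higher under tBHQ. The difference was at least 2-fold for 525 of the former and 364 of the latter. Of 3065 genes not called, 2251 had a 95% interval of the difference that lay inside a 2-fold change in either direction. Against DMSO, 477 genes (9.61%) were higher and 353 (7.11%) lower under Torin, while 858 (17.3%) were higher and 949 (19.1%) lower under tBHQ. Both of these comparisons use the same 8 DMSO libraries, so values against DMSO are given side by side and not counted as agreement. The split depended on the scaling. With relative log expression (RLE) factors in place of TMM factors the median difference over all genes moved from 0.001 to -0.15 log2 units, and 820 genes were higher under Torin against 1268 under tBHQ, so that 39.3% and not 52.2% of the calls lay on the Torin side. Differences below are Torin against tBHQ on the log2 scale unless another pair is named, with levels as CPM.

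The folliculin complex differed between the compounds in its parts. Fnip2, which encodes 1 of the 2 folliculin partners, stood at 352, 447 and 545 CPM (lowest, median and highest of 8 wells) under Torin and at 134, 168 and 221 CPM under tBHQ. The groups did not overlap. DMSO wells, at 65.1, 90.9 and 137 CPM, lay below all Torin wells and touched the lowest tBHQ well. Fnip2 (mm10, chromosome 3, 79455974 to 79567796, minus strand) was higher under Torin by 1.35 ± 0.14 (SE, adjusted p = 7.47e-15). The other partner, Fnip1 (mm10, chromosome 11, 54438199 to 54518235, plus strand), ran the same way by less, with 197, 225 and 299.7 CPM under Torin and 117, 159 and 221 CPM under tBHQ. Its wells overlapped and its difference was 0.52 ± 0.18 (SE, adjusted p = 0.0154). That call ended with RLE factors (adjusted p = 0.0892), without wells G (adjusted p = 0.103), without wells H (adjusted p = 0.0564) and without the Torin well G of plate 2 (adjusted p = 0.0648).

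Flcn, the folliculin gene itself (mm10, chromosome 11, 59791408 to 59810016, minus strand), went the other way. It had 10.99, 26.7 and 49.6 CPM under Torin and 30.2, 58.1 and 69.02 CPM under tBHQ, against 0, 7.21 and 21.7 CPM in DMSO wells. Most tBHQ wells lay above the Torin wells, with an overlap between the lowest tBHQ and the highest Torin wells. The level was higher under tBHQ by 0.91 ± 0.31 (SE, adjusted p = 0.0111), a call that ended without wells H (adjusted p = 0.0579) and within each plate (adjusted p = 0.105 on plate 1 and 0.153 on plate 2). Against DMSO, the log2 change of Flcn was 1.8 under Torin and 2.71 under tBHQ, that of Fnip1 was 2.28 under Torin and 1.76 under tBHQ and that of Fnip2 was 2.19 under Torin and 0.83 under tBHQ.

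Among the Rag GTPases, Rragc, the RagC gene, was not called between the compounds, with 102, 136 and 159.7 CPM under Torin and 105, 132 and 205 CPM under tBHQ. DMSO wells held 55.7, 74.6 and 92.8 CPM. The 95% interval of the Rragc difference was -0.38 to 0.26, and its log2 changes against DMSO were 0.84 under Torin and 0.90 under tBHQ. Rraga, the RagA gene, was not called between the compounds (difference -0.35, adjusted p = 0.209).

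The Ragulator subunits, which anchor the Rag GTPases, leaned to tBHQ. Lamtor1, the subunit that carries the lipid anchor, ranged over 5.66, 17.6 and 39.97 CPM under Torin and 66.5, 88.4 and 132 CPM under tBHQ, with no overlap. The difference was 2.16 ± 0.29 (SE, adjusted p = 4.94e-12), and the log2 changes of Lamtor1 against DMSO were -0.9 under Torin and 1.26 under tBHQ. Lamtor4 had 9.99 to 23.5 CPM under Torin and 31.02 to 56.5 CPM under tBHQ, again without overlap, and was higher under tBHQ by 1.44 ± 0.34 (SE, adjusted p = 7.94e-05). Lamtor2 was higher under tBHQ by 0.9 ± 0.27 (SE, adjusted p = 0.00300), a call lost without wells G (adjusted p = 0.0532). Lamtor3 (-0.18, adjusted p = 0.652) and Lamtor5 (-0.55, adjusted p = 0.0550) were not called, although Lamtor5 was called with RLE factors (adjusted p = 0.0114). So 3 of 5 Ragulator genes were higher under tBHQ (60%, beside 18.3% of all genes). Under Torin 0 were higher (beside 20% of all genes), and all 5 differences were below 0.

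The transcription factor genes of this branch split by member. Tfe3 was higher under tBHQ by 1.51 ± 0.33 (SE, adjusted p = 2.07e-05), with 0 to 31.02 CPM under Torin and 27.1 to 85.5 CPM under tBHQ and an overlap at the lowest tBHQ well. Mitf, a relative of TFE3, was higher under Torin by 1.29 ± 0.19 (SE, adjusted p = 8.80e-09), and its 313 to 579.5 CPM under Torin lay above its 120.1 to 244 CPM under tBHQ. Tfec, the macrophage member of that family, was also higher under Torin, by 1.06 ± 0.24 (SE, adjusted p = 7.42e-05), a call that depended on wells G (difference 0.47, adjusted p = 0.178 without them). Both Mitf and Tfec had been raised by LPS in DMSO wells (0.94 and 1.39). Their log2 changes against DMSO were 0.23 under Torin and -1.06 under tBHQ for Mitf and 0.27 under Torin and -0.78 under tBHQ for Tfec. Of 13 tested members of the list of 16, 4 were higher under Torin (30.8%, beside 20% of all genes), 5 were higher under tBHQ (38.5%, beside 18.3%) and 4 were not called, or 3 and 6 called with RLE factors. The median difference was -0.35 beside 0.001 over all genes. Tfeb, Rragb and Rragd were too low to be tested.

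**Figure D1:**
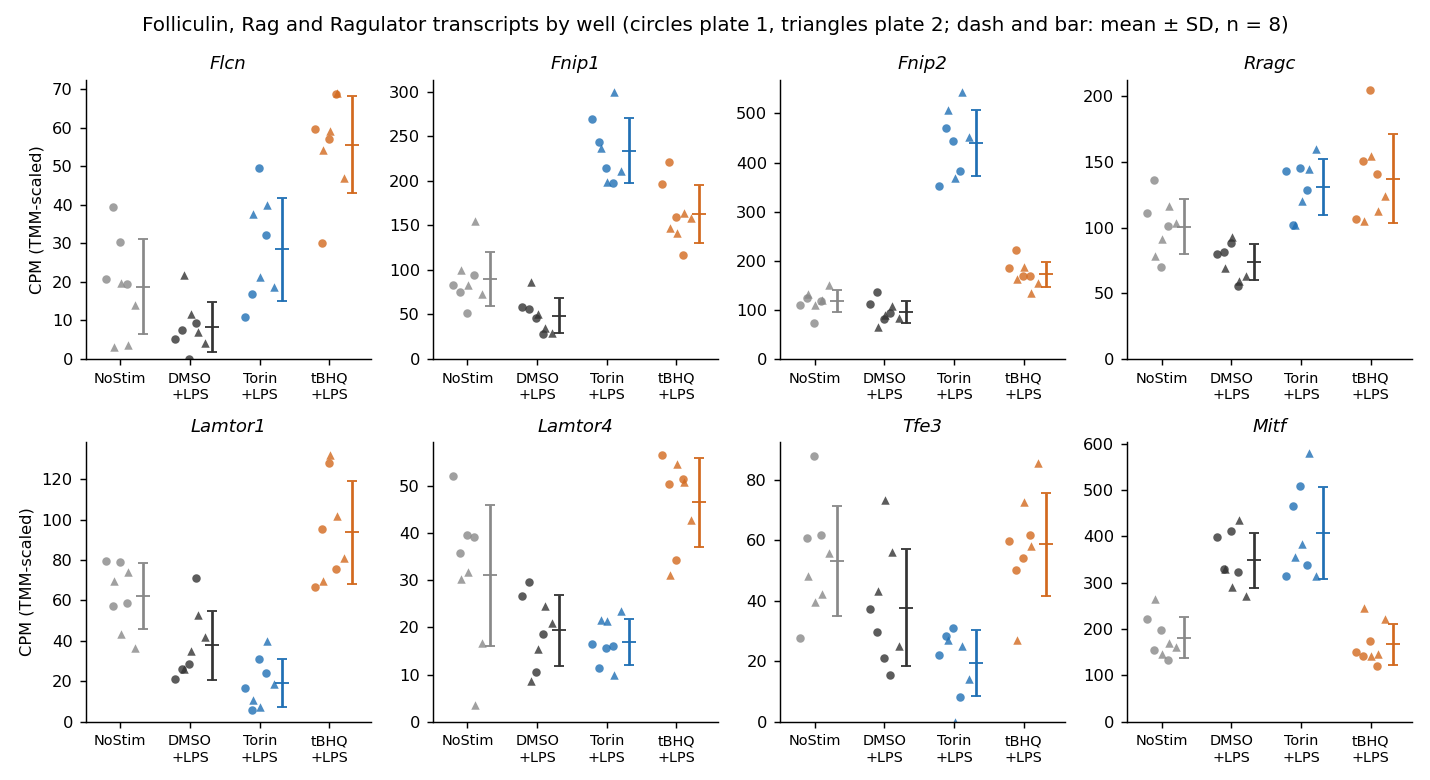
Normalised level (CPM, vertical axes from 0) of 8 folliculin, Rag, Ragulator and TFE family genes in the 8 wells of NoStim, DMSO with LPS, Torin with LPS and tBHQ with LPS, with circles for plate 1, triangles for plate 2, and the mean and SD beside the wells. Torin wells of Fnip2 (352 to 545 CPM) sit above all tBHQ wells, Lamtor1 and Lamtor4 show the reverse, and the wells of Rragc mix.

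The promoters of this list were searched for letters that TFEB and its relatives are known to bind. The 8-letter core TCACGTGA, read on both strands in the window from 250 bases before to 50 bases after a start in RefSeq (GRCm38.p6), was in 0 of the 12 members that have a window, and in 3.15% of the 3778 tested genes with one. The shorter E-box CACGTG, which lies inside that core and is its own reverse complement, was in 4 of the 12 (33.3%), in 12.9% of tested genes and in 7.15% of all 32851 windows. The 4 genes are Fnip1, Rragc, Lamtor1 and Lamtor4. Their 250 bases before the start are shown because these genes cover each of the patterns above, with a higher level under Torin, no call, and a higher level under tBHQ. The E-box is in capitals, the strand is that of the gene (plus for all 4), and the windows are chr11:54437929-54438178 for Fnip1, chr4:123917183-123917432 for Rragc, chr7:101905587-101905836 for Lamtor1 and chr5:138255232-138255481 for Lamtor4.
Fnip1: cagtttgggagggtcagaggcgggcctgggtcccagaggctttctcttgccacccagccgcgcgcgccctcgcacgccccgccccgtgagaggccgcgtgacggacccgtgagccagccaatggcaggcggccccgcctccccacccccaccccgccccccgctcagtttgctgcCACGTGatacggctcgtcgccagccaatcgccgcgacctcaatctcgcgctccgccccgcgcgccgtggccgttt
Rragc: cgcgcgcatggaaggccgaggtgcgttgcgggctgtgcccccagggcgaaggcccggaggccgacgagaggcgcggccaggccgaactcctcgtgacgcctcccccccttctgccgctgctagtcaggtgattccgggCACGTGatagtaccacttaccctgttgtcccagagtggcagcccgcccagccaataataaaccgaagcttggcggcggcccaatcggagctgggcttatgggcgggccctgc
Lamtor1: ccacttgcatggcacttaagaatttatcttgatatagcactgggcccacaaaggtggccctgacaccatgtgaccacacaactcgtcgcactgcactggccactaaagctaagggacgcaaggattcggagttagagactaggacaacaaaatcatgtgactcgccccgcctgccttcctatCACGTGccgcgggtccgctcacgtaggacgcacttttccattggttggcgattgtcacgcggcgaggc
Lamtor4: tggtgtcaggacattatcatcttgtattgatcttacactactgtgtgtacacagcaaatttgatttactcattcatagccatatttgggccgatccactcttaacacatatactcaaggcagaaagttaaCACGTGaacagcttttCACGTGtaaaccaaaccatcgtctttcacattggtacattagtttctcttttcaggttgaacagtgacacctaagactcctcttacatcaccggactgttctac
The E-box begins 75 bases before the start of Fnip1, 112 before that of Rragc and 68 before that of Lamtor1. Lamtor4 holds a pair of them, 120 and 104 bases before its start. The shared letters therefore stand in front of genes whose difference between the compounds ran in opposite directions. A match describes the letters in these windows and shows no binding.

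Lysosomal genes, the targets of TFEB and TFE3, leaned to tBHQ. Against DMSO, the median log2 change of the 46 tested members was -0.05 under Torin and 0.38 under tBHQ. These medians are a description with no test, because earlier results on these genes were known. Between the compounds, 4 of the 46 genes for lysosomal enzymes and membrane proteins were higher under Torin and 19 under tBHQ. Ctsl, Npc2 and Ppt1 were among the 4. The shares were 8.7% and 41.3%, beside 20% and 18.3% of all genes, and the median difference was -0.32. With RLE factors the counts were 1 and 27. Gusb, the gene of beta-glucuronidase, had 54.95 to 193 CPM under Torin and 202 to 294 CPM under tBHQ, with no overlap. It was higher under tBHQ by 1.29 ± 0.16 (SE, adjusted p = 6.42e-12). Fuca1, a fucosidase gene, was higher under tBHQ by 1.16 ± 0.20 (SE, adjusted p = 3.57e-07), again without overlap. The sialidase gene Neu1 was higher under tBHQ by 1.28 ± 0.26 (SE, adjusted p = 8.75e-06), with overlapping wells. The membrane protein gene Lamp2 was not called, with a 95% interval of -0.28 to 0.29, while Lamp1 had a difference of -0.22 that was not called (adjusted p = 0.117) and was called with RLE factors (adjusted p = 0.00683). Ctsa, cathepsin A, was higher under tBHQ by 0.38 ± 0.12 (SE, adjusted p = 0.00913), and lost that call with same-named wells summed (adjusted p = 0.0980), without wells E (adjusted p = 0.0855) or without wells F (adjusted p = 0.0672).

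The V-ATPase, the proton pump that acidifies the lysosome, had subunits on both sides, with 3 of 17 tested genes higher under Torin (Atp6v1a, Atp6v1e1 and Tcirg1) and 6 higher under tBHQ (17.6% and 35.3%, beside 20% and 18.3% of all genes). Atp6v1a, the catalytic subunit, had 1906, 2033 and 2438 CPM under Torin and 1089.9, 1269.7 and 1624 CPM under tBHQ. No well overlapped, and the level was higher under Torin by 0.65 ± 0.10 (SE, adjusted p = 3.72e-08). Atp6v0c, a subunit of the proton-carrying ring, had 132 to 193 CPM under Torin and 262 to 382 CPM under tBHQ. It was higher under tBHQ by 0.97 ± 0.15 (SE, adjusted p = 1.20e-08), and Atp6v0e and Atp6v0d1 went the same way by 0.81 ± 0.18 and 1.11 ± 0.29. Tcirg1, a membrane subunit prominent in osteoclasts, was higher under Torin by 0.76 ± 0.18 (SE, adjusted p = 2.24e-04).

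Autophagy genes showed no common direction, with 4 of 21 tested members higher under Torin (Sqstm1, Tax1bp1, Optn and Tecpr1), 5 higher under tBHQ (Gabarap, Atg5, Wipi2, Map1lc3b and Atg4c) and a median of 0.02. These shares, 19% and 23.8%, were near the 20% and 18.3% of all genes. The calls of Optn and Map1lc3b were lost without wells G (adjusted p = 0.230 and 0.142), with same-named wells summed (adjusted p = 0.103 and 0.146) and in several other settings. The cargo receptor gene Sqstm1, which LPS raised in DMSO wells by 1.17, was higher under Torin by 0.76 ± 0.16 (SE, adjusted p = 3.53e-05). Tax1bp1, another cargo receptor, had 368 to 555 CPM under Torin and 188 to 299 CPM under tBHQ and was higher under Torin by 0.84 ± 0.16 (SE, adjusted p = 4.15e-06). Of the ATG8 family, which coats autophagosome membranes, Gabarap was higher under tBHQ by 0.86 ± 0.16 (SE, adjusted p = 2.71e-06), and Gabarapl1 was not called (95% interval -0.71 to 0.42) and above DMSO under both compounds, by 1.41 and 1.56.

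Genes for mTOR subunits and regulators had calls in both directions. Of 12 tested genes in a list of 32, 1 was higher under Torin (Seh1l) and 3 under tBHQ (Sesn1, Eif4ebp1 and Rps6kb1), while 8 were not called. The shares were 8.33% under Torin and 25.0% under tBHQ, beside 20% and 18.3% of all genes. The calls of Seh1l and Rps6kb1 were lost without wells H (adjusted p = 0.0675 and 0.217) and in several other settings. Rheb, the GTPase that activates mTOR complex 1, was not called (95% interval -0.54 to 0.32). Eif4ebp1, an mTOR substrate that restrains translation, was higher under tBHQ by 0.86 ± 0.28 (SE, adjusted p = 0.00807), a call lost without wells G or H (adjusted p = 0.0533 and 0.0643).

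Genes that LPS raises made up 429 of the 991 genes higher under Torin. The set was taken from the DMSO and NoStim wells alone, as genes called and changed at least 2-fold by LPS, which holds 532 raised genes (10.7% of those tested) and 278 lowered genes (5.60%). Of the 532 raised genes, 429 were higher under Torin and 4 under tBHQ (80.6% and 0.752%, beside 20% and 18.3% of all genes), and the median difference was 1.27. Of the 278 lowered genes, 14 were higher under Torin and 141 under tBHQ (5.04% and 50.7%), with a median of -0.68. Among 3173 genes not called for LPS, 305 (9.61%) were higher under Torin and 513 (16.2%) under tBHQ. The medians of the raised genes against DMSO were -0.26 under Torin and -1.41 under tBHQ, while their median LPS change was 1.62. DMSO wells entered the choice of these genes, so the values against DMSO are not independent of the choice, whereas the difference between Torin and tBHQ does not use them. With same-named wells summed, 434 raised genes were higher under Torin and 4 under tBHQ.

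**Figure D2:**
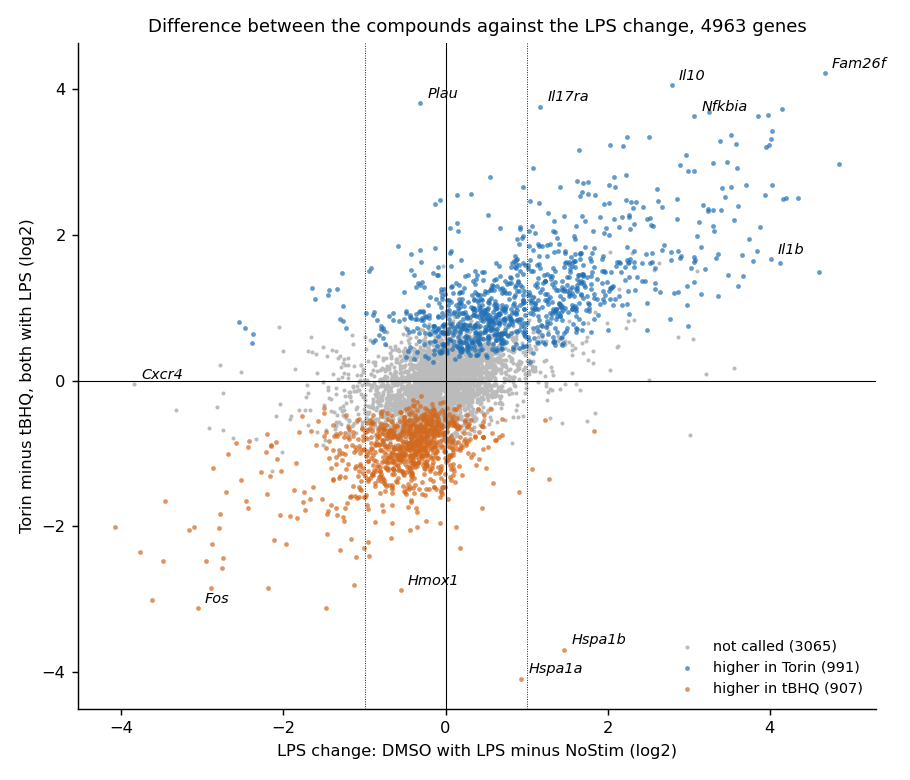
Each point is 1 of 4963 tested genes, with its LPS change (DMSO with LPS minus NoStim, log2, horizontal axis) and its difference between Torin and tBHQ (log2, vertical axis), in blue where higher in Torin, in orange where higher in tBHQ and in gray where not called. Dotted lines mark 2-fold LPS changes; blue points fill the upper right, Hspa1b and Hspa1a lie lowest, right of 0, and Cxcr4 lies near 0 at the left.

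Cytokine and NF-kB genes followed that pattern, and 39 of 45 tested inflammatory genes were higher under Torin, with 1 higher under tBHQ (Ier3, given below) and a median of 1.65. These shares were 86.7% and 2.22%, beside 20% and 18.3% of all genes. Against DMSO, 15 of the 45 were lower and 6 higher under Torin, while 42 were lower and 0 higher under tBHQ. The medians against DMSO were -0.23 under Torin and -2.04 under tBHQ. Over all genes, 7.11% were lower and 9.61% higher under Torin, and 19.1% were lower and 17.3% higher under tBHQ. Nfkbia, which encodes the NF-kB inhibitor IkB-alpha (mm10, chromosome 12, 55489410 to 55492647, minus strand), had 6920.4, 8294 and 9272 CPM under Torin and 523, 664 and 804 CPM under tBHQ. The tBHQ wells lay at the level of the NoStim wells, 553 to 783 CPM, and the DMSO wells, 5261 to 5999 CPM, lay below the Torin wells. The difference was 3.63 ± 0.10 (SE, adjusted p = 1.19e-63). The anti-inflammatory cytokine gene Il10 (mm10, chromosome 1, 131019845 to 131024974, plus strand) had 129, 166 and 193 CPM under Torin and 0, 10.2 and 15.5 CPM under tBHQ, and 11.6, 38.2 and 62.99 CPM in DMSO wells. Torin wells stood above all DMSO wells, which overlapped with the tBHQ wells. Il10 was higher under Torin by 4.05 ± 0.39 (SE, adjusted p = 6.89e-25), with changes against DMSO of 2.12 under Torin and -1.94 under tBHQ, both called. Il1b, the interleukin-1 beta gene, was below DMSO under both compounds, with changes of -1.82 under Torin and -3.48 under tBHQ, and still higher under Torin than tBHQ by 1.67 ± 0.15 (SE, adjusted p = 8.22e-18). Its wells held 606 to 813 CPM under Torin and 77.3 to 306 CPM under tBHQ. Tnf was higher under Torin by 1.29 ± 0.13 (SE, adjusted p = 3.86e-15) and was not called for Torin against DMSO (-0.32, adjusted p = 0.0706). Il6 had 15.5 to 38.5 CPM under Torin and 0 to 20.1 CPM under tBHQ, and its difference of 1.22 ± 0.42 (SE, adjusted p = 0.00892) was lost on plate 1 alone (0.75, adjusted p = 0.291) and without wells E (adjusted p = 0.0538).

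A group of genes stood above DMSO under Torin and below it under tBHQ. Il17ra, the interleukin-17 receptor gene, had 408, 451 and 571 CPM under Torin and 23.3, 34.8 and 51.3 CPM under tBHQ, with DMSO wells between, at 91.1, 129 and 185 CPM. None of the 3 groups overlapped, and the difference between the compounds was 3.76 ± 0.21 (SE, adjusted p = 5.35e-38). Tnfsf15 and Tnfsf9, which encode cytokines of the TNF family, were higher under Torin by 3.62 ± 0.26 (SE, adjusted p = 2.55e-31) and 3.65 ± 0.23 (SE, adjusted p = 7.64e-35). Against DMSO, Tnfsf15 changed by 1.34 under Torin and -2.28 under tBHQ and Tnfsf9 by 0.59 under Torin and -3.06 under tBHQ. Sphk1, the sphingosine kinase gene, was low, with 16.5 to 84.9 CPM under Torin and 0 to 6.87 CPM under tBHQ, and was higher under Torin by 3.69 ± 0.65 (SE, adjusted p = 1.77e-11). Plau, the urokinase gene (mm10, chromosome 14, 20836660 to 20843385, plus strand), was unlike these in that tBHQ wells overlapped with DMSO wells. It had 856, 991 and 1139 CPM under Torin, 29.1, 66.2 and 105 CPM under tBHQ and 42.5, 83.1 and 144 CPM in DMSO wells. Torin wells stood far above the rest, the difference was 3.81 ± 0.22 (SE, adjusted p = 9.55e-29), and Plau was not called for tBHQ against DMSO or for LPS (-0.31, adjusted p = 0.325).

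Of 21 tested chemokine and chemokine receptor genes, 13 were higher under Torin and 1 under tBHQ (61.9% and 4.76%, beside 20% and 18.3% of all genes), with a median of 0.75. That 1 was Cx3cr1, the fractalkine receptor, higher under tBHQ by 1.19 ± 0.39 (SE, adjusted p = 0.00565), a call lost without wells G (adjusted p = 0.0750). Ccl2, which attracts monocytes, had 922, 1128 and 1287 CPM under Torin and 72.8, 113 and 156 CPM under tBHQ and was higher under Torin by 3.32 ± 0.20 (SE, adjusted p = 7.01e-27). Ccl5 was higher by 2.96 ± 0.19 (SE, adjusted p = 6.25e-24), with 1774 to 3366 CPM under Torin and 205 to 436 CPM under tBHQ. Under Torin their changes against DMSO were 0.55 (called) and -0.25 (not called). Ccl3 and Ccl4, the macrophage inflammatory proteins, were higher under Torin by 1.78 ± 0.16 and 2.11 ± 0.13. Of the 21 genes, 8 were lower and 4 higher than DMSO under Torin, while 17 were lower and 2 higher under tBHQ. The medians against DMSO were -0.21 under Torin and -1.79 under tBHQ. Over all genes, 7.11% were lower and 9.61% higher under Torin, and 19.1% were lower and 17.3% higher under tBHQ.

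Interferon response genes were higher under Torin in 45 of 62 tested members and higher under tBHQ in 0 (1 with RLE factors), with a median of 1.12. The Torin share was 72.6%, beside 20% and 18.3% of all genes higher under Torin and under tBHQ. Against DMSO, 25 of the 62 were lower and 1 higher under Torin, while 55 were lower and 0 higher under tBHQ. The medians against DMSO were -0.36 under Torin and -1.60 under tBHQ. Over all genes, 7.11% were lower and 9.61% higher under Torin, and 19.1% were lower and 17.3% higher under tBHQ. Irf1, the transcription factor gene at the head of many interferon targets, had 617, 763 and 1001 CPM under Torin and 68.2, 89.9 and 134 CPM under tBHQ. The tBHQ wells overlapped with the NoStim wells, 31.2 to 95.2 CPM, and the difference was 2.98 ± 0.18 (SE, adjusted p = 8.17e-29). The guanylate binding protein gene Gbp7 was higher under Torin by 3.0 ± 0.18 (SE, adjusted p = 2.77e-30), and Fam26f, an interferon-induced channel-family gene, showed the highest difference in favour of Torin, 4.22 ± 0.27 (SE, adjusted p = 5.35e-38), with 272 to 396 CPM against 7.26 to 26.6 CPM. The antiviral Ifit genes differed by less. Ifit1 was higher under Torin by 1.54 ± 0.15 (SE, adjusted p = 6.03e-15) and Ifit2 by 0.88 ± 0.19 (SE, adjusted p = 8.63e-05). Ifit3 was not called (95% interval -0.02 to 0.93) and was below DMSO under both, with changes of -1.25 under Torin and -1.71 under tBHQ, although it was called with same-named wells summed (adjusted p = 0.0301) and without the tBHQ well E of plate 2 (adjusted p = 0.0426). The letters GAAANNGAA of the interferon-stimulated response element, on either strand, were in the promoter windows of 28 of 50 members with a window (56%), beside 10.2% of tested genes and 8.56% of all windows. That element is a known feature of such genes and its share is a description of the list.

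The 4 genes raised by LPS but higher under tBHQ were Hspa1b, Dnaja1, Ier3 and Phlda1, chosen for naming after their values were seen. Hspa1b is described with the heat shock genes. Dnaja1, a co-chaperone gene, was below DMSO under both compounds (-1.16 under Torin and -0.62 under tBHQ) and higher under tBHQ than Torin by 0.54 ± 0.16 (SE, adjusted p = 0.00345), a call lost without wells F (adjusted p = 0.0819). Ier3, an NF-kB target that limits apoptosis, was higher under tBHQ by 0.69 ± 0.25 (SE, adjusted p = 0.0164), a call lost without wells G (adjusted p = 0.307) or without either tBHQ well G (adjusted p = 0.0656 for plate 1 and 0.0822 for plate 2). Phlda1 was higher under tBHQ by 1.35 ± 0.31 (SE, adjusted p = 7.85e-05).

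Among the genes that LPS lowers, Fos had levels under tBHQ that overlapped with those of unstimulated wells. Fos, an immediate early transcription factor gene, had 176, 272 and 295 CPM in NoStim wells and 16.8, 30.3 and 52.05 CPM in DMSO wells. Under Torin it had 24.1, 39.2 and 50.97 CPM, within the range of DMSO, and under tBHQ 256, 334 and 409 CPM, so that the groups were far apart. The difference was 3.13 ± 0.30 (SE, adjusted p = 1.87e-17) in favour of tBHQ. Txnip, the thioredoxin inhibitor gene, was higher under tBHQ by 2.43 ± 0.27 (SE, adjusted p = 2.15e-15), with 5.66 to 69.99 CPM under Torin and 133 to 236 CPM under tBHQ. The genes Susd3, Sox4 and Tnfaip8l2 were among the 10 highest differences in favour of tBHQ, at 3.01 ± 0.34, 2.85 ± 0.52 and 2.85 ± 0.34, and each had been lowered by LPS (-3.62, -2.89 and -2.19). The 3 were not called for Torin against DMSO. The chemokine receptor gene Cxcr4 broke the pattern. LPS had lowered it from 542 to 37.2 CPM at the median, and it had 201, 286 and 362 CPM under Torin and 176, 295 and 414 CPM under tBHQ. The wells of both compounds mixed, above all DMSO wells and below all NoStim wells, and the 95% interval of the difference was -0.41 to 0.31.

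Immediate early genes split in both directions, with 7 of 23 tested members higher under Torin and 9 under tBHQ (30.4% and 39.1%, beside 20% and 18.3% of all genes). Beside Fos, the kinase gene Sik1, a cyclic AMP target, was higher under tBHQ by 2.42 ± 0.50 (SE, adjusted p = 7.58e-07), and Zfp36l1, which encodes an mRNA decay factor, by 1.83 ± 0.25 (SE, adjusted p = 8.55e-11). Jun was above DMSO under both compounds, by 0.98 and 1.69, and higher under tBHQ by 0.7 ± 0.26 (SE, adjusted p = 0.0205). The Jun call was lost with same-named wells summed (adjusted p = 0.0878) and without wells E, G or H, where the adjusted p was 0.174, 0.0724 and 0.05004.

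NRF2 targets leaned to tBHQ, with 16 of 32 tested members higher under tBHQ and 4 under Torin. These were 50.0% and 12.5%, beside 18.3% and 20% of all genes, and the list median was -0.47. Hmox1, heme oxygenase 1 (mm10, chromosome 8, 75093621 to 75100589, plus strand), had 53.8, 98.6 and 121 CPM under Torin, within reach of the 84.99, 105 and 149 CPM of DMSO wells. Under tBHQ it had 299, 678 and 1131 CPM, and all tBHQ wells lay above every Torin and DMSO well. The difference was 2.87 ± 0.18 (SE, adjusted p = 1.39e-30). Blvra, biliverdin reductase, which acts on the product of heme oxygenase, was higher under tBHQ by 1.42 ± 0.27 (SE, adjusted p = 2.33e-06). Of the glutathione synthesis genes, the modifier subunit Gclm was higher under tBHQ by 1.01 ± 0.21 (SE, adjusted p = 3.48e-05), with 82.4 to 142 CPM against 141 to 342 CPM and ranges that meet at their edges. The catalytic subunit Gclc was not called (-0.55, adjusted p = 0.0900) and was called with RLE factors (adjusted p = 0.0238). The 4 members higher under Torin were Bach1, Maff, Txnrd1 and Txn1, of which the last pair belong to the thioredoxin system. Bach1, which encodes a repressor of NRF2 targets, had 526, 678 and 769 CPM under Torin and 105, 157 and 206 CPM under tBHQ. DMSO wells, 136 to 217 CPM, overlapped with the tBHQ wells, and the difference was 2.09 ± 0.15 (SE, adjusted p = 4.56e-26). Maff, a small MAF partner gene, was higher under Torin by 2.37 ± 0.44 (SE, adjusted p = 9.55e-08). The antioxidant response element core TGACNNNGC, on either strand, was in the windows of 11 of 27 members with a window (40.7%), in 18.3% of tested genes and in 12.4% of all windows.

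Heat shock genes gave the widest differences in favour of tBHQ. Hspa1a, an inducible HSP70 gene (mm10, chromosome 17, 34969190 to 34972156, minus strand), had 3.10, 11.4 and 28.3 CPM under Torin and 115, 242 and 322 CPM under tBHQ, beside 17.3, 24.9 and 38.95 CPM in DMSO wells. The lowest tBHQ well was above every Torin and DMSO well, and the difference was 4.09 ± 0.37 (SE, adjusted p = 8.81e-27). Its near-identical neighbour Hspa1b differed by 3.69 ± 0.31 (SE, adjusted p = 1.21e-26), with 0 to 42.6 CPM under Torin and 147 to 391 CPM under tBHQ. The reads of these 2 genes could be split between them by the counting, so each value is uncertain. Hsph1, the HSP110 co-chaperone gene, had 0, 10.1 and 35.5 CPM under Torin and 29.9, 57.8 and 86.4 CPM under tBHQ, with the highest Torin well inside the tBHQ range, and differed by 2.01 ± 0.41 (SE, adjusted p = 2.57e-06). Zfand2a, a heat- and arsenite-inducible gene of proteasome adaptors named after its values were seen, had been lowered by LPS (-2.71) and was above DMSO under both compounds (2.63 under Torin and 4.15 under tBHQ). It had 0, 4.83 and 11.6 CPM in DMSO wells, 5.38, 40.1 and 56.3 CPM under Torin and 68.4, 118 and 148 CPM under tBHQ. Torin wells overlapped with DMSO wells and lay below all tBHQ wells, and the difference between the compounds was 1.52 ± 0.28 (SE, adjusted p = 1.32e-06). In all, 8 of 23 tested heat shock genes were higher under tBHQ and 1, Dnajb6, under Torin (34.8% and 4.35%, beside 18.3% and 20% of all genes), and 13 were higher under tBHQ with RLE factors.

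**Figure D3:**
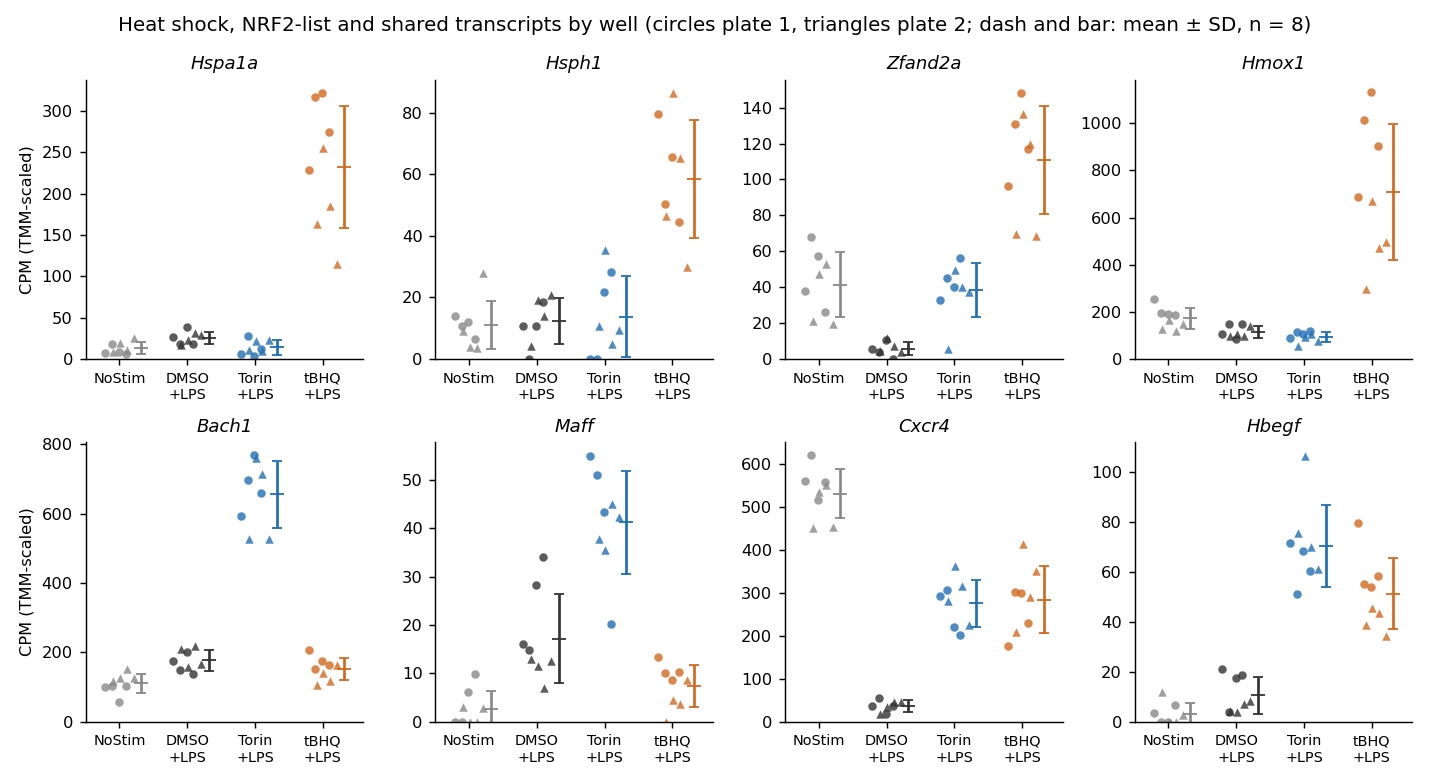
Normalised level (CPM, vertical axes from 0) of heat shock genes (Hspa1a, Hsph1, Zfand2a), genes of the NRF2 list (Hmox1, Bach1, Maff) and genes raised by both compounds (Cxcr4, Hbegf) in the 8 wells of each of 4 groups, with circles for plate 1, triangles for plate 2, and the mean and SD beside the wells. The tBHQ wells of Hspa1a (115 to 322 CPM) stand above all others, Bach1 shows the reverse with Torin at 526 to 769 CPM, and the wells of Cxcr4 mix between the compounds.

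The letters TTCNNGAA, the core of the heat shock element (its own reverse complement), were in the windows of 6 of 18 heat shock list members with a window (33.3%), beside 8.21% of tested genes and 8.52% of all windows. They include Hsph1 and Zfand2a, whose 250 bases before the start (minus strand, chr5:149636316-149636565 for the first of the Hsph1 starts by coordinate and chr5:139484492-139484741 for Zfand2a, GRCm38.p6) are shown because both genes differed by over 2-fold and have no near-identical copy as Hspa1a has. The core is in capitals, 54 bases before the start in Hsph1 and 196 in Zfand2a. The Hsph1 window holds a further match, TTCTGGAA, 15 bases after the start and so outside the bases shown.
Hsph1: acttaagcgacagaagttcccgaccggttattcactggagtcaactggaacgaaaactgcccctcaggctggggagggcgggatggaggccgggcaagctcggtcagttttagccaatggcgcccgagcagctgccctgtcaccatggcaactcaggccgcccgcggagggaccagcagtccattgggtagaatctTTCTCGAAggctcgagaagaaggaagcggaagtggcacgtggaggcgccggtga
Zfand2a: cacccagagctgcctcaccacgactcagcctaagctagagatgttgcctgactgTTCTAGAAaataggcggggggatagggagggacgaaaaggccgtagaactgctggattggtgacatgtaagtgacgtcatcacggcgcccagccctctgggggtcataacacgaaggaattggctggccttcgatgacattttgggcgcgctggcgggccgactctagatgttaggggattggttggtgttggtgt
The match shown in Hsph1 reads TTCTCGAA and that in Zfand2a reads TTCTAGAA. As before, a match is a description of the letters and not of binding.

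Nuclear genes of oxidative phosphorylation, which encode the respiratory chain and ATP synthase of mitochondria, were mostly higher under tBHQ. Of 67 tested, 46 were higher under tBHQ (68.7%, beside 18.3% of all genes) and 0 were higher under Torin (beside 20% of all genes). The other 21 were not called, and the list median was -0.67. With same-named wells summed 37 were higher under tBHQ, and with RLE factors 55. By complex, 24 of 33 complex I genes, 3 of 9 of complex III, 7 of 10 of complex IV and 12 of 15 of complex V were higher under tBHQ. Atp5d, the delta subunit of ATP synthase (mm10, chromosome 10, 80138632 to 80145818, plus strand), had 0, 18.7 and 39.97 CPM under Torin and 58.4, 76.2 and 95.5 CPM under tBHQ. The 2 groups did not overlap, and the difference was 1.93 ± 0.33 (SE, adjusted p = 2.88e-08). Atp5g1, a gene of the ATP synthase ring, differed by 1.76 ± 0.29 (SE, adjusted p = 1.33e-08), with 11.3 to 46.97 CPM under Torin and 46.5 to 116 CPM under tBHQ at the edges of an overlap made by 1 Torin well. Ndufb8 and Ndufb7, accessory subunits of complex I, differed by 1.54 ± 0.26 (SE, adjusted p = 1.21e-07) and 1.49 ± 0.26 (SE, adjusted p = 1.23e-07). The first members of the list, Ndufa1, Ndufa2 and Ndufa3 differed by 0.74 ± 0.20, 0.9 ± 0.20 and 0.92 ± 0.20, all called. Against DMSO, 16 of the 67 were lower and 0 higher under Torin, while 13 were higher and 0 lower under tBHQ, with medians of -0.44 and 0.34 (over all genes, 7.11% were lower under Torin and 17.3% higher under tBHQ). More genes were detected in tBHQ libraries, as given above, and the part of this in these counts was not tested. The genes encoded in mitochondrial DNA, 15 in the list, had no row in the table.

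**Figure D4:**
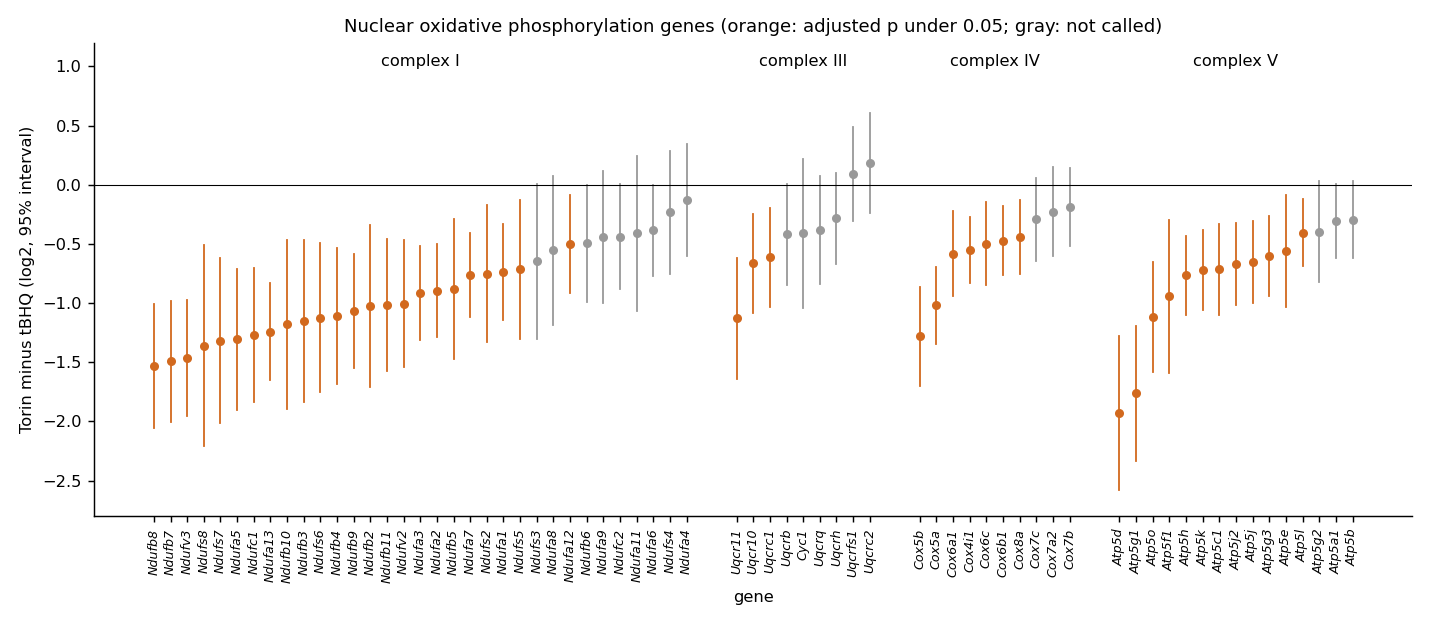
Difference between Torin and tBHQ (log2, vertical axis) with its 95% interval for 67 nuclear oxidative phosphorylation genes, ordered within complex I, III, IV and V, in orange where called and in gray where not. All but a pair of complex III genes (Uqcrfs1 and Uqcrc2) lie below 0, the side of tBHQ, and Atp5d lies lowest at -1.93.

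Genes of translation showed little difference and no direction that held across scalings. Of 87 tested genes with a terminal oligopyrimidine tract, whose translation mTOR controls, 5 were higher under Torin (Pabpc1, Rps20, Rpl35, Rpl12 and Rps25) and 3 under tBHQ (Eef1g and Rpl18 among them), with a median of 0.06 (5.75% and 3.45%, beside 20% and 18.3% of all genes), while with RLE factors 0 were higher under Torin and 10 under tBHQ. The first members of the list, Rplp0, Rplp1 and Rplp2, acidic proteins of the ribosome stalk, were not called, with 95% intervals of -0.03 to 0.42, -0.04 to 0.36 and -0.35 to 0.17. Rplp0 was called toward Torin without wells F (0.36, adjusted p = 0.0185). The calls of Eef1g and Rpl18 were lost without wells F (adjusted p = 0.0626 and 0.209), and that of Rpl18 also with same-named wells summed (adjusted p = 0.0797). Pabpc1, the poly(A) binding protein gene, was higher under Torin by 0.35 ± 0.09 (SE, adjusted p = 0.00161), a call lost with RLE factors (adjusted p = 0.142) and without wells G (adjusted p = 0.0622). Of 15 tested tRNA synthetase genes, 1 (Iars) was higher under Torin and 3 (Mars, Nars and Sars) under tBHQ (6.67% and 20%, beside 20% and 18.3% of all genes), or 0 and 6 with RLE factors. Mars was higher under tBHQ by 1.5 ± 0.34 (SE, adjusted p = 5.57e-05), though not called on plate 2 alone (adjusted p = 0.154), and Nars by 0.8 ± 0.19 (SE, adjusted p = 1.89e-04). The calls of Iars and Sars were lost without wells E (adjusted p = 0.449 and 0.170) and in many other settings. Among these were RLE factors for Iars (adjusted p = 0.108) and same-named wells summed for Sars (adjusted p = 0.0896).

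Stress genes of the ATF4 branch, which answers amino acid shortage and endoplasmic reticulum stress, were split 4 to 4 over 16 tested members (25.0% each, beside 20% and 18.3% of all genes), or 3 to 5 with RLE factors. Atf4 itself had 113, 159 and 181 CPM under Torin and 218, 293 and 476 CPM under tBHQ and was higher under tBHQ by 1.01 ± 0.16 (SE, adjusted p = 3.97e-08). Ddit3, the CHOP gene, had 5.38 to 22.7 CPM under Torin and 58.4 to 119.9 CPM under tBHQ, without overlap, and was higher under tBHQ by 2.29 ± 0.33 (SE, adjusted p = 5.00e-11). Mthfd2, a mitochondrial folate enzyme gene, was higher under tBHQ by 1.2 ± 0.38 (SE, adjusted p = 0.00407), a call lost on plate 2 alone (adjusted p = 0.206). Asns, asparagine synthetase, a standard ATF4 target, was not called (-0.50, adjusted p = 0.408). The other members called were Eif4ebp1, given above, toward tBHQ, and Slc3a2 and Gdf15 toward Torin. Cebpb and Nupr1, both transcription regulators, were higher under Torin by 1.26 ± 0.22 (SE, adjusted p = 5.06e-07) and 1.61 ± 0.25 (SE, adjusted p = 3.17e-08). In the unfolded protein response list, 2 of 29 tested members (Hyou1 and Sel1l) were higher under Torin and 8 under tBHQ (12 with RLE factors). These were 6.9% and 27.6%, beside 20% and 18.3% of all genes. Hspa5, the BiP chaperone gene, was below DMSO under both (-0.57 under Torin and -0.33 under tBHQ) and not called between them (-0.25, adjusted p = 0.0695), with a call toward tBHQ with RLE factors (adjusted p = 0.00240). Xbp1 was higher under tBHQ by 1.5 ± 0.32 (SE, adjusted p = 1.04e-05). Of 31 tested proteasome genes, 1 (Psma6) was higher under Torin and 8 under tBHQ (16 with RLE factors), which is 3.23% and 25.8% beside 20% and 18.3% of all genes. Psmb3, a subunit of the core particle, had 24.8 to 38.5 CPM under Torin and 41.2 to 109 CPM under tBHQ and was higher under tBHQ by 1.2 ± 0.25 (SE, adjusted p = 1.12e-05).

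Metabolic genes differed member by member. Of 21 tested glycolysis and hypoxia genes, 4 were higher under Torin (Hk2, Ndrg1, Pfkfb3 and Hif1a) and 10 under tBHQ. The Torin share of 19% was near the 20% of all genes, and the tBHQ share was 47.6%, beside 18.3%. The list median was -0.39, beside 0.001 over all genes, so the list as a whole leaned to tBHQ. Slc16a3 was among the genes higher under tBHQ, a call lost on plate 2 alone (adjusted p = 0.734). The Hif1a call was lost without wells F or G (adjusted p = 0.0722 and 0.0974). Hk2, hexokinase 2, which starts glycolysis, had 440.5, 520.1 and 644 CPM under Torin and 27.1, 78.2 and 111 CPM under tBHQ. Torin wells lay above all DMSO wells, 250.3 to 378 CPM, and tBHQ wells below them, with a difference of 2.92 ± 0.16 (SE, adjusted p = 4.14e-36). Ndrg1, a hypoxia and stress marker, was higher under Torin by 2.47 ± 0.20 (SE, adjusted p = 1.61e-22) and Pfkfb3, which makes an activator of glycolysis, by 1.36 ± 0.20 (SE, adjusted p = 5.40e-09). The glucose transporter gene Slc2a1 was not called (95% interval -0.41 to 0.73). In the sterol and lipid list, 4 of 13 tested members were higher under Torin (Insig1, Ch25h, Hilpda and Acsl1) and 2 under tBHQ (Acly and Plin2), 30.8% and 15.4% beside 20% and 18.3% of all genes. The Acly call was lost without wells G (adjusted p = 0.179), with same-named wells summed (adjusted p = 0.0924) and in several other settings. Insig1, which restrains sterol synthesis, had 469.6, 499 and 787 CPM under Torin and 47.02, 84.6 and 105 CPM under tBHQ, and its difference was 2.79 ± 0.18 (SE, adjusted p = 1.30e-29). Ch25h, which makes 25-hydroxycholesterol, was higher under Torin by 2.12 ± 0.37 (SE, adjusted p = 5.70e-08). Hilpda, a lipid droplet gene also induced by hypoxia, was above DMSO under both compounds (3.55 under Torin and 1.77 under tBHQ) and higher under Torin by 1.77 ± 0.28 (SE, adjusted p = 2.00e-08), with no overlap between 83.8 to 137 CPM and 7.76 to 45.2 CPM.

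FOXO targets, which mTOR complex 2 and AKT hold down, were higher under Torin in 8 of 16 tested members and under tBHQ in 3, with a median of 0.66. The Torin share was 50.0%, beside 20% of all genes, and the tBHQ share of 18.8% was near the 18.3% of all genes. Against DMSO, 9 of the 16 were higher under Torin and 9 under tBHQ (56.2% each, beside 9.61% and 17.3% of all genes). Against DMSO, 0 were lower under Torin and 3 under tBHQ (beside 7.11% and 19.1% of all genes). The medians against DMSO were 0.83 under Torin and 0.78 under tBHQ, so a raised list was not particular to Torin. Irs2, an insulin receptor substrate gene, had 38.5, 77.2 and 119 CPM under Torin and 8.55, 37.1 and 60.3 CPM under tBHQ. Both lay above the DMSO median of 7.57 CPM, with changes of 3.0 under Torin and 1.88 under tBHQ, and Irs2 was higher under Torin by 1.11 ± 0.30 (SE, adjusted p = 0.00136). On plate 1 alone that difference was 0.65 and not called (adjusted p = 0.255). Cdkn1b, the p27 cell cycle inhibitor gene, had 121 to 283 CPM under Torin and 37.8 to 72.8 CPM under tBHQ and differed by 1.75 ± 0.23 (SE, adjusted p = 2.54e-11), and Ccng2, the cyclin G2 gene, by 2.44 ± 0.36 (SE, adjusted p = 1.36e-10). The 3 higher under tBHQ were Bcl6, Txnip, given above, and the sestrin gene Sesn1 (2.35 ± 0.61), and all 3 had been lowered by LPS.

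Of 21 tested p53 and apoptosis genes, 14 were higher under Torin and 2 (Bbc3 and Ccng1) under tBHQ (66.7% and 9.52%, beside 20% and 18.3% of all genes), with a median of 0.82. Their median LPS change in DMSO wells was 0.83. Cdkn1a, the p21 gene, had 2508, 2649 and 2995 CPM under Torin and 770.1, 1013 and 1379.9 CPM under tBHQ, with 5411 to 6533 CPM in DMSO wells. No 2 of these 3 groups overlapped, and it was higher under Torin by 1.35 ± 0.11 (SE, adjusted p = 2.06e-21). Gadd45b, a stress response gene, was above DMSO under Torin and below it under tBHQ (1.05 under Torin and -1.34 under tBHQ) and differed by 2.39 ± 0.13 (SE, adjusted p = 1.03e-36). Mdm2, which encodes the ligase that degrades p53, was higher under Torin by 0.67 ± 0.14 (SE, adjusted p = 6.08e-05).

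Among cytoskeleton genes, 3 of 21 tested (Vim, Msn and Myh9) were higher under Torin and 9 under tBHQ (14 with RLE factors), 14.3% and 42.9% beside 20% and 18.3% of all genes. The alpha-tubulin genes Tuba1b and Tuba1c were higher under tBHQ by 1.95 ± 0.18 (SE, adjusted p = 2.80e-19) and 2.29 ± 0.25 (SE, adjusted p = 1.16e-16), and close sequence between them makes each count uncertain. Vim, vimentin, had 764 to 986 CPM under Torin and 367 to 538 CPM under tBHQ and was higher under Torin by 1.06 ± 0.11 (SE, adjusted p = 6.68e-15). Of 10 tested cell cycle genes, 1 was higher under Torin and 3 (Ccnd1, Cdk4 and Mcm6) under tBHQ (10% and 30%, beside 20% and 18.3% of all genes). Cdk4, the kinase that D cyclins activate, was higher under tBHQ by 1.24 ± 0.27 (SE, adjusted p = 3.70e-05). The cyclins D went apart, with Ccnd2, an LPS-raised gene here, higher under Torin by 1.72 ± 0.14 (SE, adjusted p = 5.55e-21) and Ccnd1, an LPS-lowered gene, higher under tBHQ by 1.32 ± 0.17 (SE, adjusted p = 1.64e-11). The proliferation marker Mki67 was not called (95% interval -0.15 to 0.98). Of 20 tested macrophage identity genes, 2 (Cd14 and Msr1) were higher under Torin and 11 under tBHQ (10% and 55%, beside 20% and 18.3% of all genes). Tyrobp, a signalling adaptor, had 736 to 955 CPM under Torin and 1291 to 2447 CPM under tBHQ and was higher under tBHQ by 1.25 ± 0.11 (SE, adjusted p = 8.12e-21), whereas Csf1r, Emr1 and Itgam, the receptor for MCSF and the surface markers F4/80 and CD11b, were not called (95% intervals -0.36 to 0.10, -0.29 to 0.29 and -0.03 to 0.69). Itgam was called toward Torin without the tBHQ well E of plate 2 (0.46, adjusted p = 0.0439). It was also called that way on plate 1 alone (0.63, adjusted p = 0.0315). Csf1r was called toward tBHQ with DESeq2 (-0.28, adjusted p = 0.0423).

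Some genes moved far from DMSO under both compounds and differed little between them. The genes named here were chosen because both compounds moved them alike against DMSO and their interval lay inside 2-fold. Their small difference was thus set by the choice, and both changes share the DMSO wells. Hbegf, an EGF receptor ligand gene, had 50.97, 69.1 and 106 CPM under Torin and 34.2, 49.8 and 79.7 CPM under tBHQ, both above the 3.71, 7.70 and 21.3 CPM of DMSO wells. The 95% interval of its difference was -0.15 to 0.99. Fam111a, a protease gene, changed against DMSO by 2.68 under Torin and 2.93 under tBHQ, with an interval of -0.63 to 0.15 between the compounds. Luzp1 and Errfi1, the latter an EGF receptor inhibitor gene, were below DMSO under both, with changes of -1.66 under Torin and -1.50 under tBHQ for the first and -1.35 under Torin and -1.30 under tBHQ for the second. Their intervals between the compounds were -0.63 to 0.30 and -0.62 to 0.51. The interval of Hbegf leaves room for a difference of close to 2-fold, and the others, like that of Cxcr4, for smaller ones. These intervals do not show that the compounds act alike.

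**Figure D5:**
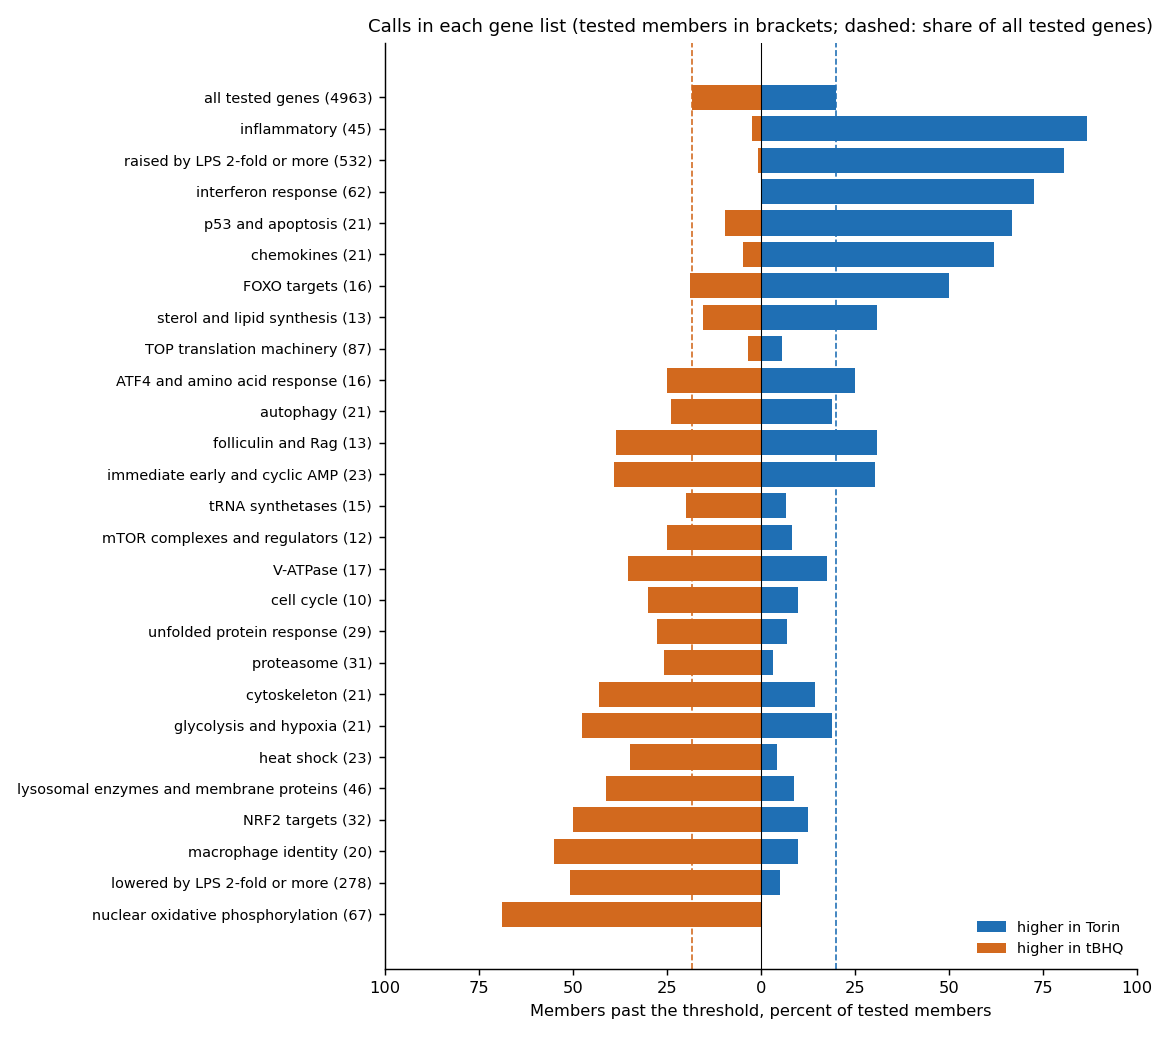
Share of tested members of each gene list (percent, horizontal axis, number tested in brackets) called higher in Torin (blue, to the right) or higher in tBHQ (orange, to the left), with dashed lines at the shares over all 4963 tested genes (20% and 18.3%). The inflammatory, LPS-raised and interferon lists reach furthest to the right and the nuclear oxidative phosphorylation list furthest to the left, at 68.7%.

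The plates were also taken apart. The test of whether the difference between Torin and tBHQ itself differed between the plates called 0 of 4963 genes (edgeR quasi-likelihood test of the interaction, with 189 genes at an unadjusted p under 0.05). Of the 1898 called genes, 1896 had a difference of the same sign on both plates, which the choice of called genes in part fixes. Within a single plate, with 4 wells a side, further calls given above were not reached. On plate 2 these were Atp6v0d1 (adjusted p = 0.191), Gclm (0.0812), Lamtor4 (0.0529), Ndufa1 (0.0665), Phlda1 (0.264), Dnaja1 (0.319), Ier3 (0.341), Eif4ebp1 (0.183), Atg5 (0.339), Mcm6 (0.122), Cx3cr1 (0.324), Eef1g (0.138) and Pabpc1 (0.0919). On plate 1 they were Neu1 (adjusted p = 0.120), Map1lc3b (0.471) and Optn (0.505). On either plate alone, given as plate 1 and then plate 2, they were Fnip1 (adjusted p = 0.176 and 0.0642), Lamtor2 (0.0594 and 0.0893), Ctsa (0.152 and 0.0966), Jun (0.0501 and 0.263), Acly (0.132 and 0.251), Hif1a (0.159 and 0.0684), Iars (0.170 and 0.292), Sars (0.228 and 0.216), Seh1l (0.156 and 0.163), Rps6kb1 (0.227 and 0.136) and Rpl18 (0.120 and 0.0847). Some members given by name alone were not examined this way.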

How the data were processed

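RNA of each lysed well was turned into 3′-end libraries by SCRB-Seq with Nextera, per the labels' protocols. The authors deposited 1 table of read counts for 23481 genes in 96 libraries; its values are whole numbers, and whether molecular identifiers were collapsed is not given in the sources used here. BWA and mm10 are named in the submitters' processing notes. Columns were matched to samples by name, and groups were taken from the sample titles. Counts of 4963 genes that passed edgeR's expression filter were fitted over all 96 libraries, with 1 level per group and plate as a term, so that all groups share 1 estimate of the spread. edgeR 4.0.16 (quasi-likelihood, TMM scaling, Benjamini-Hochberg adjustment at 0.05) gave differences, standard errors and 95% intervals; limma 3.58.1 was loaded with it, and DESeq2 1.42.0, run in R 4.3.3, was an alternative. CPM values are scaled by TMM. Figures and summaries used Python 3.11.15, scipy 1.17.1 and matplotlib 3.10.9.

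The members and gene lists were chosen with earlier results of these data known. Genes were named by rule: the 10 highest differences each way among called genes with at least 30 CPM, the first 3 tested and up to 4 called members of each list, all tested folliculin genes, up to 6 genes each way that moved oppositely against DMSO, and up to 5 each way that moved alike with an interval inside 2-fold. Members listed by name alone to complete a count of 5 or fewer, and Zfand2a, were chosen after their values were seen. A few members that the rule names are not reported here. Tests on simulated data of this comparison (4963 genes) recovered 21 of 67 genes changed 1.5-fold, 43 of 67 changed 2-fold and 62 of 66 changed 4-fold, with 0 in the wrong direction. The simulated Torin wells took the fitted levels and depths of the tBHQ wells, and far fewer genes were changed than were called in the data. The recovery is therefore that of this setting and may differ in the data. The total depth of a library limits low genes, where 10 CPM is about 2 reads. Alternatives covered scaling, filters, the plate term, one plate alone, summed wells, Rn45s, the libraries in the fit and leaving out wells. Gene positions are from GENCODE M21 and promoters from RefSeq (GRCm38.p6).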

Additional observations from a re-analysis of the deposited data

Results flagged for a closer look

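In 274 combinations of a named gene and a compound, 10 had a well that stood apart from the other 7 by Dixon's criterion, where chance alone marks about 5 in 100. Among lysosome genes, the Torin well E of plate 1 had 93.4 CPM of Lamtor3 with the next at 43.1, the Torin well G of plate 2 had 2438 CPM of Atp6v1a with the next at 2143, and the Torin well H of plate 1 had 241 CPM of Atp6v0e with the next at 159. Atp6v1a wells did not overlap between the compounds with or without that well, while the high Atp6v0e well is the one that reaches into the tBHQ range.

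Among genes that LPS changes, the tBHQ well H of plate 2 had 51.3 CPM of Il17ra with the next at 36.6, and the tBHQ well F of plate 2 had 40.9 CPM of Gbp7 with the next lowest at 72.7. The tBHQ well E of plate 2 was high for Nupr1, at 128 CPM with the next at 64.1. Sesn1 had 21.5 CPM in the Torin well E of plate 2 with the next at 9.31, and Zfand2a had 5.38 CPM in that same well with the next lowest at 32.98. Atp5g1 reached 46.97 CPM in the Torin well H of plate 2 with the next at 21.98, and Hbegf reached 106 CPM in the Torin well F of plate 2 with the next at 75.4.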

How the results depend on the processing

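Between 34 alternatives, no named gene changed direction past the threshold (0 reversed among 184 named), and 44 of 141 called genes lost their call in at least 1 setting, 28 of them in some setting other than a single plate. A single plate accounted for most losses (23 genes on plate 1 and 33 on plate 2). Plate 1 alone called 580 genes higher in tBHQ, and plate 2 alone called 1144 genes in all, 448 of them higher in tBHQ, against 1898 and 907 with both plates. Leaving out a well letter gave 1463 to 1830 calls, and leaving out 1 Torin or tBHQ library gave 1778 to 1941. Leaving out a Tunicamycin library, which shares only the estimate of the spread, gave 1949, and library totals over tested genes gave 1923, both chosen after seeing the data. For LPS against no stimulus, 1248 genes were lower with RLE factors and 1278 with DESeq2, against 822. With same-named wells summed, the difference in detected genes was -952 (exact permutation, adjusted p = 0.0857 with 4 wells a side). Well letters were not taken as pairs in the main fit. Of 8 Torin and tBHQ pairs of one plate and letter, 4 deviated together at r over 0.1. The range was -0.04 to 0.36, and 4 of 8 correlated best with their own letter. With 4 letters a plate some such matches arise by chance, and these values do not exclude a shared letter effect. Same-lettered wells of one compound on the 2 plates deviated together in all 8 cases (r from 0.16 to 0.64). The 8 wells a side may therefore not be fully independent, and the source of this was not tested. The fit with a replicate block called 1871 genes and lost the call of 1 named gene. Depth, 148284 to 309247 counts a library, limits the precision for genes of few counts.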
